A study of Mus musculus with 4 samples.

Results

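The 31 genes described here encode integrin and laminin chains of the mouse, without the alpha chains of lettered names such as Itgal and Itgam. The rule took protein-coding genes named Itga or Itgb with a number, Itgav, or Lama, Lamb or Lamc with a number, and used no measured value. They comprise 12 integrin alpha chains, 8 integrin beta chains, 5 laminin alpha chains, 3 laminin beta chains and 3 laminin gamma chains, among 25393 genes listed by the authors. The measurements were RNA-seq libraries of primary astrocyte cultures from cortex and hippocampus of untreated C57BL/6 mice at post natal day 1, with 2 libraries from wild-type mice (WT) and 2 labelled as constitutive Tet1 knockout (tet1-/-, here labelled KO). Each isolation pooled 2 mice, and the glia were grown in serum-containing medium, purified by shaking and cultured further before RNA extraction. TET1 is a dioxygenase that oxidises methylated cytosine in DNA.

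Integrins are cell-surface receptors made of 1 alpha and 1 beta chain. They join the extracellular matrix to the actin cytoskeleton through talin, kindlin and vinculin. Laminins are secreted trimers of 1 alpha, 1 beta and 1 gamma chain that assemble into the sheets of basement membranes. In the brain, astrocyte endfeet rest on the laminin-rich membranes around blood vessels and below the pia, and integrins and dystroglycan hold them there.

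The libraries held 18749610 to 22673555 reads on genes, and 1 read was worth 0.901 to 1.07 normalized counts. All values below in normalized counts are reads divided by a library size factor and compare 1 gene between libraries, whereas FPKM also divides by gene length and was used to compare levels between genes. Tet1 itself stood at 266 and 121 normalized counts in the WT libraries. In labelled KO replicates 1 and 2 it stood at 173 and 463, so reads over the whole targeted gene were not lower there. The paper reports Tet1 mRNA as almost undetectable in its KO astrocytes. A count over the whole gene cannot show whether part of it is missing. The genotype is given throughout as the label states it. The astrocyte marker Gfap, an intermediate filament protein, read 58004 and 67297 in WT, and 174853 and 9945 in labelled KO replicates 1 and 2, so the pair labelled KO differed widely. The 9 astrocyte markers were all present, and their summed level was 146050 and 147686 in WT against 252462 and 43475 in labelled KO. Gfap made up most of that sum in labelled KO replicate 1. Without overlap between labels, 4 of the 9 were lower (Aldh1l1, Slc1a3, Slc1a2 and Aqp4) and 1 higher (Gja1). Of all genes tested, 25.4% were lower and 22.5% higher in that way. Summed levels of 12 microglia markers were 1400 and 2912 in WT and 238 and 157 in labelled KO, and those of 5 proliferation genes were 207 and 1076 against 2529 and 5296. The part of these differences in the values below was not tested. Because the labels name no separate cultures, every p-value below measures the spread between these libraries only.

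The start regions of 3 members with an unadjusted p under 0.05 in the limma fit below are shown, from CpG-rich to CpG-poor. CpG is the dinucleotide at which TET1 acts on methylated cytosine. A Lama2 sequence of 250 bases, inside the annotated gene and not shown, held 0 CpG. Itgb1, Itga3 and Lama2 were higher in labelled KO, and Itgb7 was lower on few reads. A relation between CpG and direction was not tested. The sequences are from RefSeq on GRCm38.p6, are written 5′ to 3′ on the strand of the gene, end before the first annotated exon base, and carry each CpG in capitals. The Itgb1 sequence covers 250 bases at chr8:128685404-128685653 on the plus strand and holds 21 CpG. The Itga3 sequence covers 163 bases at chr11:95076802-95076964 on the minus strand and holds 12. The Itgb7 sequence covers 241 bases at chr15:102231945-102232185 on the minus strand and holds 5.
Itgb1: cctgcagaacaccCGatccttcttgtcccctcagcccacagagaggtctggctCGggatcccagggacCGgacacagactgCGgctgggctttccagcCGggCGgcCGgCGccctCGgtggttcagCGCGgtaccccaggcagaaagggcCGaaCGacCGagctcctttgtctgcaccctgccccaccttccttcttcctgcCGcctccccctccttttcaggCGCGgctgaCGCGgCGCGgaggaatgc
Itga3: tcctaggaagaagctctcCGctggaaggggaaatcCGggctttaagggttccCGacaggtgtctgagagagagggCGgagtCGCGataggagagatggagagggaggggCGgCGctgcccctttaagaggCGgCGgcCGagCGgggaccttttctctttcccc
Itgb7: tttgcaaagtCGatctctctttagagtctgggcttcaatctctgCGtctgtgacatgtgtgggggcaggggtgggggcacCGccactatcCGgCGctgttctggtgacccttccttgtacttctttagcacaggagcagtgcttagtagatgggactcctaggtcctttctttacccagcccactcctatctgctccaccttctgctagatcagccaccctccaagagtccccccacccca
Over windows of 300 bases, 250 before and 50 after the RefSeq start, 20 of the 31 members matched the table of 32851 windows. Member windows held a median of 13 CpG, from 1 to 27, against 7 over all windows, and 15 of the 20 reached that overall median. Itgb1 held the most, 27, with 24 for Itga3, Itgav and Lama5. The fewest, 1, was in the Lama2 window, which lies 2816 bases inside the annotated gene. The GC-box core GGGCGG was found on either strand in 10 of the 20 (50%) against 35.7% of all windows, the TATA-box form TATAAA in 0 of 20 against 13.6%, and the AP-1-type TGANTCA in 1 of 20, Itga9, against 7.81%. For members with several windows only the one nearest the annotated gene start was counted, whereas the shares run over all windows. The Itga9 window lies 105002 bases inside the annotated gene, and a further Itga3 window, 7603 bases from its gene start and not counted, also held TGANTCA. Each motif was counted on its own, GGGCGG itself contains a CpG, and the matches describe the windows only.

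The abundant chains set the composition of both families. In every library the integrin beta pool, measured as summed FPKM, was mostly Itgb1 and Itgb5, the laminin beta pool mostly Lamb2, and the laminin gamma pool mostly Lamc1. Itgb1 was higher and Itgb4 lower in the libraries labelled KO, each without overlap. Lamc1 and Lama2 were higher without overlap, whereas the most abundant laminin alpha and beta chains, Lama5 and Lamb2, overlapped between labels. The plot of normalized counts by library shows 30 of the 31 members.

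**Figure D1:**
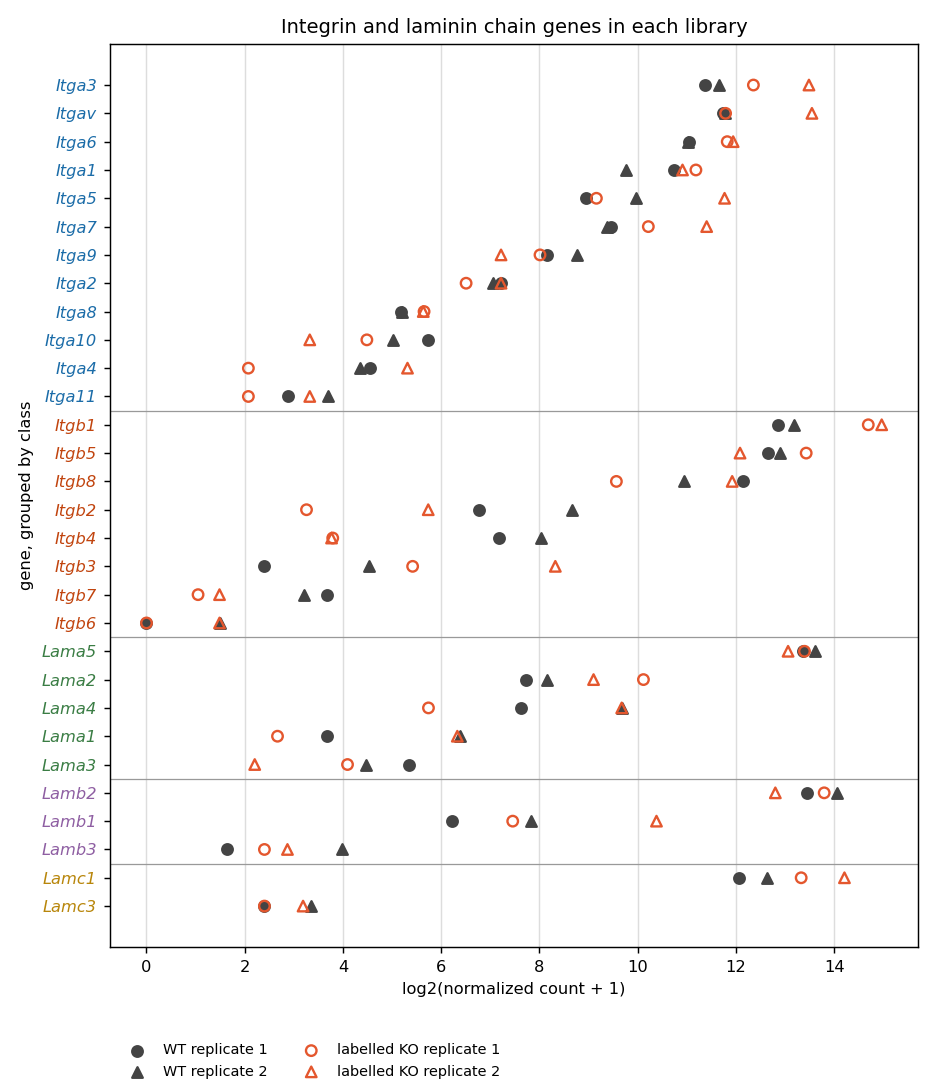
Normalized counts of 30 of the 31 members on the log2(normalized count + 1) scale, with genes grouped by class and ordered by mean within a class. Filled symbols are WT and open symbols are labelled KO, circles replicate 1 and triangles replicate 2. Both open symbols of Itgb1 lie to the right of both filled ones and both of Itgb4 lie to the left, while for Lama1, Lama4 and Itgb6 the symbols pair by replicate number.

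Of the 31 members, 30 had a mean of at least 1 normalized count and were tested. Itgb6, the epithelial partner of alpha V, was not: it read 0 and 1.84 in WT and 0 and 1.80 in labelled KO. By limma on log2(normalized count + 1) with Benjamini-Hochberg adjustment over 22094 genes, 0 members passed an adjusted p of 0.05, as did 0 of all genes (0%). At an unadjusted p of 0.05, 8 members were higher in labelled KO against 4.54% of all genes, and 3 were lower against 9.18%. edgeR's quasi-likelihood test on the recovered reads also called 0 members after adjustment and found the same 11 at the unadjusted threshold. DESeq2 called 5 members at an adjusted p of 0.05: 3 higher (Itgb1, Itgb3 and Lama2) against 1.64% of genes, and 2 lower (Itgb4 and Itgb2) against 4.62%. Without any overlap between labels, 11 members were higher against 22.5% of all genes and 6 lower against 25.4%, leaving 13 that overlapped. The median log2 fold change over the members was -0.13, beside -0.07 over all genes tested.

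Effect sizes moved when single libraries were left out. A label with 1 library adds no spread of its own, so p-values from these fits are not given. Numbers of members without overlap are not compared across these fits, because leaving out a library can only keep or raise them. The members' median log2 fold change was -0.19 without WT replicate 1, 0.35 without WT replicate 2, 0.55 without labelled KO replicate 1 and -0.19 without labelled KO replicate 2. With 1 library left out, Itgb4 stayed under an unadjusted p of 0.05 in all 4 fits and Itgb1 in 3, the exception being without WT replicate 1 (log2 fold change 1.64). Each of Itga3, Itga6, Itga7, Itgb7 and Lama2 stayed in 2 and each of Itgb2, Itgb3 and Lamc1 in 1.

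**Figure D2:**
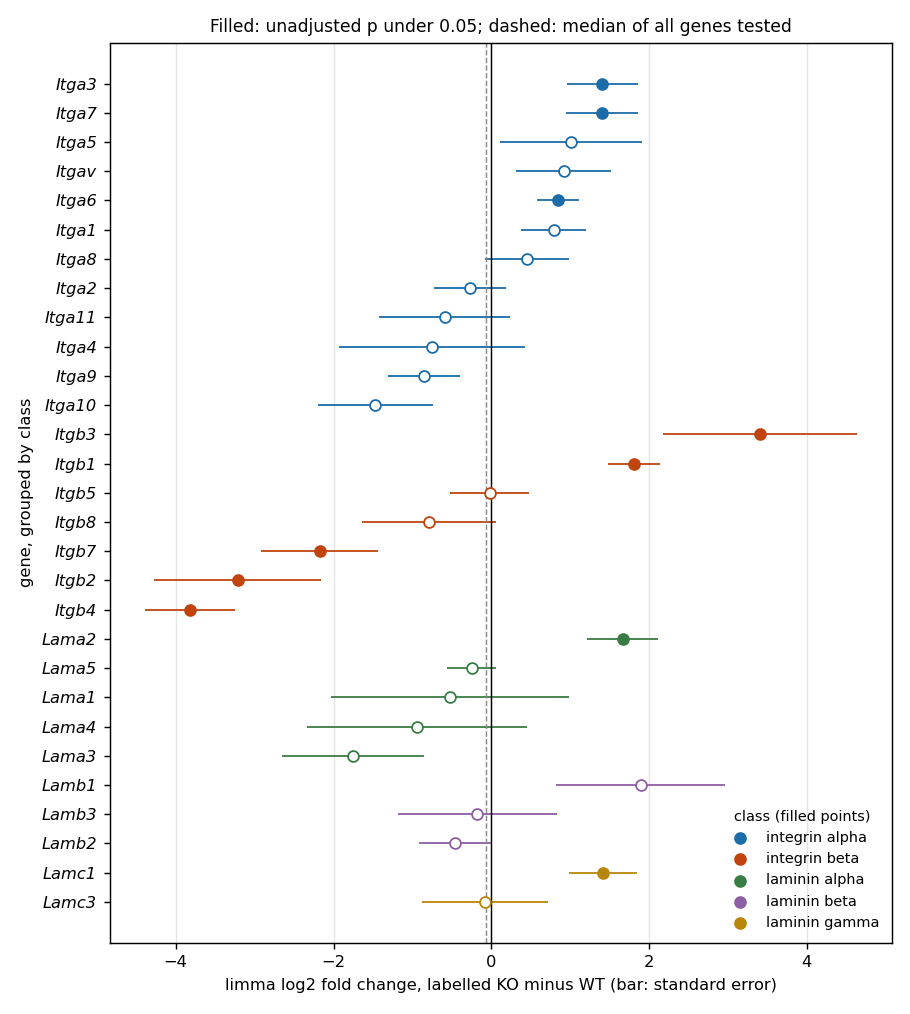
log2 fold change (labelled KO minus WT, limma on log2(normalized count + 1)) of 29 of the 30 tested members by class, with standard errors as bars. Filled points have an unadjusted p under 0.05, and the dashed line is the median of all genes tested, -0.07. Filled points of the alpha integrins and of the laminins shown all lie to the right of 0. Those of the beta integrins fall on both sides, from -3.82 for Itgb4 to 3.41 for Itgb3. Itgal and Itgam, lower in labelled KO, are outside the rule and not plotted here.

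Gene positions in this and the following paragraphs are on GRCm38. Among the laminin alpha chains, Lama5 was the chief one. It encodes the alpha chain of the laminins of mature vascular and epithelial membranes and, by FPKM, made up 96.4% and 91.9% of the alpha pool in WT and 92.7% and 87.2% in labelled KO. Its normalized counts were 10478 and 12405 in WT and 10764 and 8542 in labelled KO. The labels overlapped, with a log2 fold change of -0.25 (SE 0.31; adjusted p = 0.759 by limma with Benjamini-Hochberg adjustment).

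Lama2 (ENSMUSG00000019899, chr10:26980036-27619758, minus strand) encodes the alpha chain of the laminin that muscle basal laminae and astrocyte endfeet contact through dystroglycan. Its counts were 211 and 285 in WT and 1109 and 548 in labelled KO. Both labelled KO libraries were higher, 3.34-fold in the mean, with a log2 fold change of 1.66 (SE 0.45; adjusted p = 0.253 by limma with Benjamini-Hochberg adjustment). DESeq2 called the difference, at an adjusted p of 0.0336. By FPKM, Lama2 was 1.36% and 1.47% of the alpha pool in WT, and 6.66% and 3.90% in labelled KO, so the ratio of Lama5 to Lama2 was 71.2 and 62.4 against 13.9 and 22.4.

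The other alpha chains overlapped between labels or stayed low. Lama4, of endothelial laminin, read 196 and 815 in WT and 52.4 and 816 in labelled KO, so replicate 2 was the higher library under both labels. Lama1, the early embryonic chain, did likewise, at 11.7 and 81.8 against 5.35 and 79.3. Lama3, the chain of epidermal laminin, read 39.5 and 21.2 in WT and 16.1 and 3.61 in labelled KO without overlap, with a log2 fold change of -1.76 (SE 0.90; adjusted p = 0.454 by limma with Benjamini-Hochberg adjustment).

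The beta pool was nearly all Lamb2, the beta chain of mature basement membranes and of synaptic laminin. Its share by FPKM was 99.6% and 99.1% in WT and 99.2% and 89.7% in labelled KO. Lamb2 counts were 11132 and 17137 against 14217 and 7136. They overlapped, with the lowest value in labelled KO replicate 2. Lamb1, the beta chain of earlier laminins, read 73.6 and 225 in WT and 174 and 1333 in labelled KO. Those also overlapped, and the log2 fold change was 1.90 with a standard error of 1.07 (adjusted p = 0.489 by limma with Benjamini-Hochberg adjustment). It was 0.43 without labelled KO replicate 2, 1.10 without WT replicate 1, 2.70 without WT replicate 2 and 3.36 without labelled KO replicate 1. Lamb1 was 10.3% of the beta pool in labelled KO replicate 2 and at most 0.799% in the other libraries. Lamb3, an epidermal chain, read 2.13 and 14.7 in WT and 4.28 and 6.31 in labelled KO, near the level of 3 reads in 1 library (2.70 to 3.21 normalized counts).

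Lamc1 (ENSMUSG00000026478, chr1:153218922-153332786, minus strand) is the gamma chain of nearly all laminins. Its counts were 4283 and 6385 in WT and 10277 and 18924 in labelled KO. Every labelled KO value exceeded every WT value, 2.74-fold in the mean, with a log2 fold change of 1.42 (SE 0.43; adjusted p = 0.283 by limma with Benjamini-Hochberg adjustment). DESeq2 gave an adjusted p of 0.0780. The log2 fold change was 0.97 without labelled KO replicate 2 and 1.86 without labelled KO replicate 1.

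Lamc3, a rarer gamma chain, read 4.27 and 9.20 in WT against 4.28 and 8.11, and overlapped.

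Relative to its partners, the gamma chain pool was larger in labelled KO. Summed FPKM of gamma chains was 26.5 and 38.5 in WT and 58.1 and 118 in labelled KO, whereas that of alpha chains was 47.7 and 56.8 against 46.0 and 42.6, and that of beta chains was 91.9 and 136 against 106 and 64.8. The ratio of beta to gamma chains was 3.46 and 3.54 in WT, 1.83 in labelled KO replicate 1 and 0.551 in labelled KO replicate 2. For alpha to gamma chains it was 1.80 and 1.48 in WT against 0.792 and 0.362. Neither ratio overlapped between labels. The FPKM ratio of Lamb2 to Lamb1 did overlap, at 247 and 124 in WT and 133 and 8.73 in labelled KO. An exact permutation test of 2 against 2 cannot go below a two-sided p of 0.333, so none is given for these ratios or for the shares.

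Cells of vessels and meninges also make laminins. The summed normalized counts of 5 endothelial markers were 101 and 190 in WT and 285 and 280 in labelled KO. Kdr made up most of the sum in labelled KO replicate 1 (248, against 37.9 in replicate 2). Flt1 did so in labelled KO replicate 2 (213, against 22.5 in replicate 1). Of the 5, 0 had an unadjusted p under 0.05. For 5 mural cell markers the sums were 3292 and 4397 against 3512 and 2347. At that threshold 2 were lower (Rgs5 and Cspg4) and 0 higher, beside 9.18% and 4.54% of all genes. For 8 fibroblast and meningeal markers they were 4106 and 2709 against 2797 and 2618, with Col1a2 higher and Dcn lower at that threshold. Ogn made up most of the sum in WT replicate 1 (3340, against 967 in WT replicate 2). Without overlap, 4 of the 8 were lower and 1 higher, beside 25.4% and 22.5% of all genes. Of the markers chosen, 5 of 7 endothelial and 5 of 6 mural ones were matched to genes listed by the authors. Cldn5, Tie1 and Abcc9 were not. No matched marker of these lists was at 0 in every library, and their part in the laminin values was not tested.

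**Figure D3:**
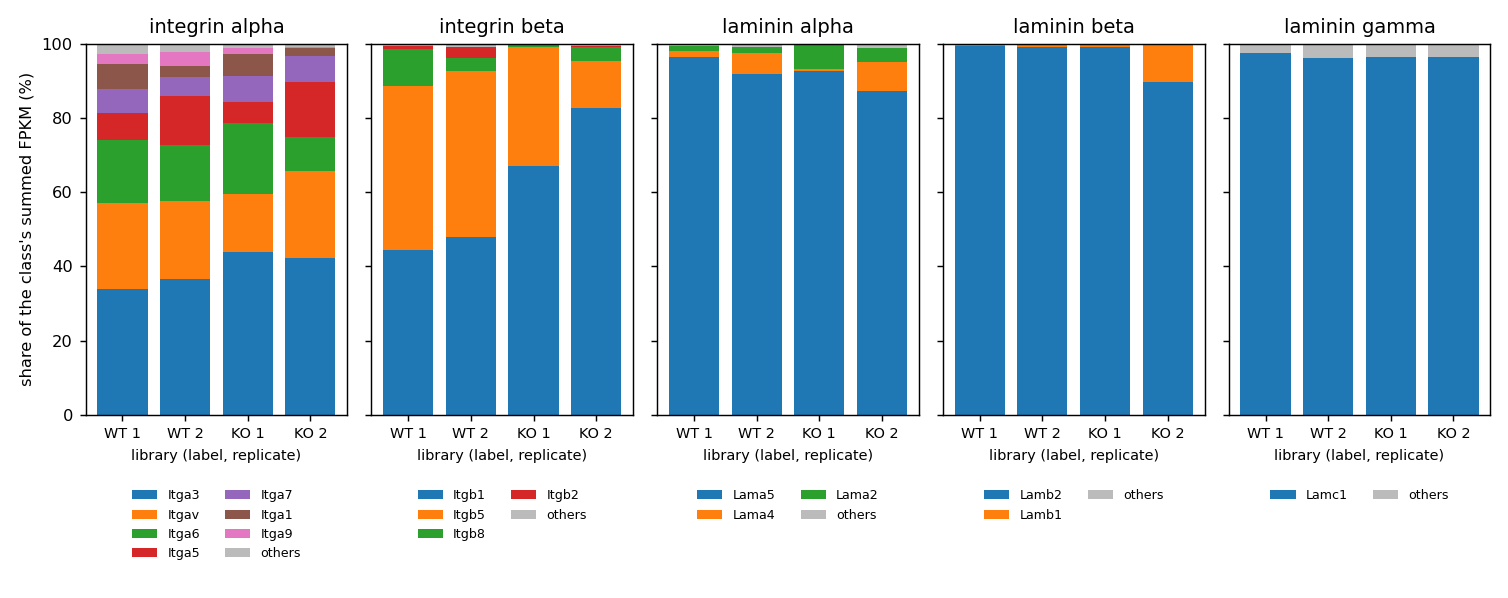
Share of each gene in the summed FPKM of its class, in percent, as stacked bars for WT replicates 1 and 2 and labelled KO (KO) replicates 1 and 2; genes that never reach 2%, and 1 gene not shown by name, are pooled as others. Itgb1 takes 44.4% and 47.8% of the beta integrin pool in WT and 67.1% and 82.7% in labelled KO, and Lamb1 reaches 10.3% of the laminin beta pool in labelled KO replicate 2.

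Among the integrins, Itgb1 (ENSMUSG00000025809, chr8:128685654-128733200, plus strand) encodes the shared beta chain that pairs with most alpha chains listed here. It was the most abundant member by FPKM, above 99.5% of all listed genes. Its counts were 7411 and 9337 in WT and 26486 and 32006 in labelled KO, so both labelled KO libraries lay far above both WT libraries and each pair was close. The mean was 3.49-fold higher, and the log2 fold change was 1.81 (SE 0.33; adjusted p = 0.161 by limma with Benjamini-Hochberg adjustment). DESeq2 called it at an adjusted p of 0.000952. Omitting any one library kept the log2 fold change between 1.64 and 1.97. Itgb1 overlaps no other annotated gene.

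Of the 4 laminin-binding chains, Itga3, Itga6, Itga7 and Itgb4, 3 were higher and 1 lower at an unadjusted p of 0.05, beside 4.54% and 9.18% of all genes. None of the 4 overlapped between labels, which held for 22.5% of all genes in the higher direction and 25.4% in the lower. Itga3 (ENSMUSG00000001507, chr11:95044474-95076801, minus strand), which with beta 1 binds laminins with the alpha 5 chain, was the most abundant alpha chain in each library by FPKM. Its counts were 2644 and 3227 in WT and 5236 and 11468 in labelled KO. The log2 fold change was 1.41 (SE 0.45; adjusted p = 0.300 by limma with Benjamini-Hochberg adjustment), and DESeq2 gave 0.0777. Labelled KO replicate 2 was the higher by 2.19-fold over replicate 1.

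Itga6 (ENSMUSG00000027111, chr2:71745616-71858416, plus strand), a laminin receptor of stem and epithelial cells, read 2116 and 2083 in WT and 3620 and 3934 in labelled KO. Both pairs were tight and did not overlap. The log2 fold change was smaller than for Itga3, 0.85 (SE 0.27; adjusted p = 0.301 by limma with Benjamini-Hochberg adjustment, 0.257 by DESeq2). Itga7 (ENSMUSG00000025348, chr10:128933818-128958282, plus strand), the laminin receptor of muscle and some glia, read 697 and 658 in WT against 1188 and 2708, without overlap. Its log2 fold change was 1.40 (SE 0.45; adjusted p = 0.305 by limma with Benjamini-Hochberg adjustment, 0.0830 by DESeq2).

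Itgb4 (ENSMUSG00000020758, chr11:115974709-116008412, plus strand), which pairs with alpha 6 alone and anchors hemidesmosomes to keratin filaments in epithelia, was the lower one. It read 143 and 259 in WT and 12.8 and 12.6 in labelled KO. The mean was 15.8-fold lower, the widest gap of the 30 members on the log2 scale at -3.82 (SE 0.57; adjusted p = 0.130 by limma with Benjamini-Hochberg adjustment). DESeq2 called it at an adjusted p of 5.18e-07. Fits on 3 libraries gave log2 fold changes from -4.24 to -3.39. The FPKM ratio of Itga6 to Itgb4 was 11.5 and 6.24 in WT and 219 and 242 in labelled KO. B230344G16Rik is annotated antisense to Itgb4, other annotated genes also overlap Itga6, Itga7, Lama2 and Lamc1, and whether the counting used strand is not given in the sources used here.

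The 4 collagen-binding alpha chains, Itga1, Itga2, Itga10 and Itga11, gave 0 at an unadjusted p of 0.05. Itga1, the receptor of collagen IV, read 1717 and 872 in WT and 2326 and 1925 in labelled KO, higher without overlap at a log2 fold change of 0.79 (SE 0.41). Itga10, known from cartilage, read 52.3 and 31.3 against 21.4 and 9.01, lower without overlap. Itga2 read 147 and 131 against 89.9 and 148, and Itga11 read 6.40 and 11.95 against 3.21 and 9.01. The latter pair of genes overlapped between labels.

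Chains that bind the RGD sequence of fibronectin and vitronectin also gave 0 of 3 at an unadjusted p of 0.05. Itgav read 3407 and 3490 in WT, 3537 in labelled KO replicate 1 and 11959 in labelled KO replicate 2, so the difference came from 1 library. Itga5, the main fibronectin receptor, read 490 and 1001 in WT and 571 and 3485 in labelled KO, and its log2 fold change turned to -0.30 without labelled KO replicate 2. Itga8 read 35.2 and 35.9 against 49.2 and 48.7, without overlap and with a log2 fold change of 0.45 (SE 0.53; adjusted p = 0.740 by limma with Benjamini-Hochberg adjustment). Itga9, a receptor of tenascin and osteopontin, read 284 and 436 in WT and 257 and 148 in labelled KO, lower without overlap. Itga4, of the VCAM-1 receptor, read 22.4 and 19.3 in WT against 3.21 and 38.8, and the 2 libraries labelled KO lay on either side of WT.

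The beta partners of alpha V did not share a direction. Itgb5, the vitronectin receptor chain, read 6426 and 7617 in WT and 11029 and 4336 in labelled KO, with WT lying between the libraries labelled KO. Itgb8, which with alpha V activates latent TGF-beta in the brain, read 4500 and 1955 against 757 and 3881, and overlapped. Itgb3 (ENSMUSG00000020689, chr11:104608000-104670476, plus strand), the beta chain of the platelet and osteoclast receptor, read 4.27 and 22.1 in WT and 41.7 and 319 in labelled KO. It was 13.7-fold higher in the mean without overlap, with a log2 fold change of 3.41 (SE 1.23; adjusted p = 0.342 by limma with Benjamini-Hochberg adjustment, 0.0141 by DESeq2). That log2 fold change was 1.96 without labelled KO replicate 2, 2.34 without WT replicate 1, 4.47 without WT replicate 2 and 4.86 without labelled KO replicate 1. Itgb3 remained a rare transcript, with FPKM of 0.0362 and 0.179 in WT and 0.319 and 2.68 in labelled KO. The FPKM ratio of Itgb1 to Itgb5 was 1.00 and 1.07 in WT, and 2.09 and 6.43 in labelled KO.

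Both leukocyte beta chains were lower. Itgb2 (ENSMUSG00000000290, chr10:77530252-77565708, plus strand), the common beta chain of the leukocyte integrins that microglia carry, read 108 and 403 in WT and 8.56 and 52.3 in labelled KO. The labels did not overlap, and the mean was 8.39-fold lower, at a log2 fold change of -3.21 (SE 1.06; adjusted p = 0.311 by limma with Benjamini-Hochberg adjustment, 0.0289 by DESeq2). Over the 4 omissions of 1 library, the log2 fold change of Itgb2 ran from -4.45 to -1.98. Itgb7 (ENSMUSG00000001281, chr15:102215995-102231944, minus strand), the chain of gut-homing lymphocyte integrins, read 11.7 and 8.28 against 1.07 and 1.80. These were 20 reads in WT and 3 in labelled KO, a ratio of labelled KO to WT of 0.149 with an exact 95% interval of 0.0283 to 0.501 that covers counting error only. Its log2 fold change was -2.17 (SE 0.74; adjusted p = 0.317 by limma with Benjamini-Hochberg adjustment, 0.473 by DESeq2).

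Itgam and Itgal, alpha partners of Itgb2 that the name rule does not include, were also lower, and DESeq2 called both at adjusted p-values of 0.0185 and 0.0172. Itgam, the microglial complement receptor chain, read 38.4 and 142 in WT and 2.14 and 12.6 in labelled KO (log2 fold change -3.52, SE 1.05). Itgal, the chain of LFA-1, read 56.5 and 443 against 4.28 and 32.4 (log2 fold change -3.59, SE 1.32). Itgax stayed at or below 1.84, and of the other integrin genes outside the rule Itga2b read 252 and 261 against 188 and 125, and Itgae 6.40 and 13.8 against 1.07 and 6.31. Of 12 microglia markers, 10 were lower and 0 higher at an unadjusted p of 0.05, beside 9.18% and 4.54% of all genes. Among the lower ones was C1qb (202 and 460 against 37.5 and 15.3). DESeq2 called 9 of the 12 lower, beside 4.62% of all genes. In bulk RNA, fewer microglia and less of their RNA per cell cannot be told apart, and the part of either in the Itgb2 and Itgb7 values was not tested.

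Libraries with the same label could differ widely. Of the 30 tested members, 9 (30%) differed over 2-fold between the WT libraries against 23.7% of all genes, and 16 (53.3%) between the libraries labelled KO against 38.3%. In 6 members, replicate 2 was over 2-fold above replicate 1 under both labels: Itga5, Itgb2, Itgb3, Lama1, Lama4 and Lamb1. The same held for 746 of all 22094 genes. Lama4 differed 4.15-fold between WT replicates and 15.6-fold between the replicates labelled KO.

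Of 17 cytoplasmic adhesion adaptors of integrins tested, 3 were higher and 1 lower at an unadjusted p of 0.05, beside 4.54% and 9.18% of all genes. Between labels 5 were higher and 4 lower without overlap, beside 22.5% and 25.4% of all genes, and 8 overlapped. The median log2 fold change of the adaptors was 0.37. Vcl, vinculin, read 2345 and 2523 in WT and 6624 and 6839 in labelled KO, at a log2 fold change of 1.47 (SE 0.27; adjusted p = 0.163 by limma with Benjamini-Hochberg adjustment, 0.00687 by DESeq2). Ilk, integrin-linked kinase, read 50.1 and 84.6 against 166 and 340, and Zyx, zyxin, 1380 and 1557 against 2516 and 3869. The one lower, Fermt3, is the kindlin of blood cells and read 63.0 and 145 against 17.1 and 27.9. Tln1, talin 1, the most abundant of the list by mean FPKM, overlapped at 8849 and 12764 against 10394 and 14421.

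Of 12 other ligands of integrins tested, 4 were higher and 3 lower at an unadjusted p of 0.05, beside 4.54% and 9.18% of all genes. DESeq2 called 5, 3 higher and 2 lower, beside 1.64% and 4.62% of all genes. Fn1, fibronectin, read 1702 and 6918 in WT and 21133 and 70923 in labelled KO (log2 fold change 3.50, SE 0.86; adjusted p = 0.227 by limma with Benjamini-Hochberg adjustment, 0.00115 by DESeq2). Tnc, tenascin C, read 9948 and 9698 against 27507 and 59841. Thbs1, thrombospondin 1, read 10403 and 16053 against 46932 and 59784, and the matricellular Cyr61 6810 and 12242 against 23933 and 26204. The 3 lower were Thbs2 (1369 and 2116 against 475 and 754), the leukocyte integrin ligand Icam1 (1389 and 2348 against 187 and 566), and Madcam1, the ligand of the alpha 4 beta 7 integrin (70.4 and 134 against 2.14 and 11.7).

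Basement membrane partners of laminin were higher in 2 of 8 at an unadjusted p of 0.05, beside 4.54% of all genes. These were the collagen IV chains Col4a1 (3122 and 5933 in WT, 8017 and 10294 in labelled KO) and Col4a2 (1450 and 2044 against 2837 and 4754), which lie head to head on opposite strands and overlap. Sparc and Agrn, the genes of the list with the highest mean FPKM, read 59985 and 95388 against 201090 and 83234, and 9813 and 14832 against 14332 and 14665, and both overlapped. Nid2, nidogen 2, singled out after its values were seen, read 4670 and 5335 in WT and 4192 and 1774 in labelled KO, lower without overlap. Of 6 laminin receptors other than integrins, only Rpsa, a ribosomal protein also described as a laminin receptor, was higher at that threshold, at 5312 and 6522 against 11018 and 21867. Rpsa has processed pseudogene copies that can share its reads, so its values are uncertain. Dag1, dystroglycan, read 15915 and 25338 in WT and 28684 and 14406 in labelled KO, and overlapped.

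Of 8 genes that present latent TGF-beta, the cargo of alpha V beta 8, 0 passed an unadjusted p of 0.05. The most abundant, Ltbp3, read 7120 and 7642 in WT and 11749 and 7110 in labelled KO. Among 4 netrins, which share the laminin N-terminal domain, Ntng1 was higher (122 and 105 against 354 and 350) and Ntng2 lower (1591 and 1260 against 915 and 332) at an unadjusted p of 0.05. That threshold was passed by 4.54% of all genes in the higher direction and 9.18% in the lower. DESeq2 called Ntng1, at an adjusted p of 0.0135, and not Ntng2.

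**Figure D4:**
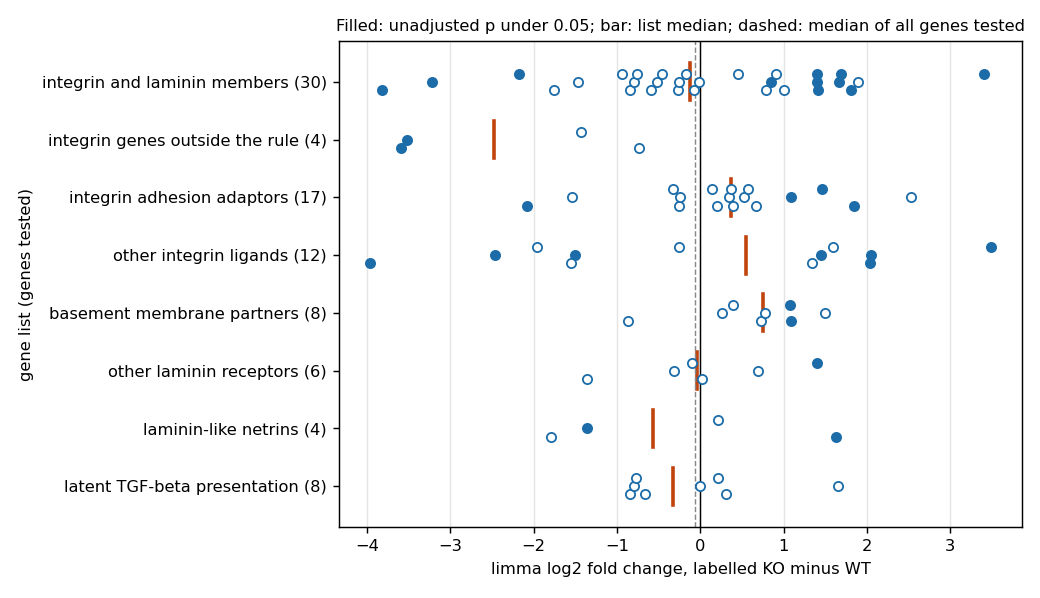
log2 fold change (labelled KO minus WT, limma) of each tested gene in the member list and 7 related lists, with the number tested in brackets. Filled points have an unadjusted p under 0.05, short bars are list medians and the dashed line is the median of all genes, -0.07. The ligand list spreads widest, from -3.96 for Madcam1 to 3.50 for Fn1, and the filled points of the integrins outside the rule are Itgal and Itgam.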

How the data were processed

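RNA-seq was measured in 4 astrocyte culture libraries, 2 WT and 2 labelled Tet1 KO, grouped by their labels. The authors aligned reads to mm10 and deposited 1 signal value per gene and library. The aligner, counting program, strand setting and annotation release are not given in the sources used here. Although named for FPKM, the deposited signal is each gene's reads scaled by 1 size factor per library. In each library 100% of values were whole multiples of 1 read (tolerance 0.1 read), so whole reads were recovered. The authors' pooled columns, fold changes and p-values were not used, and 0 sample columns were left unmapped.

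Genes with a mean of at least 1 were compared by limma 3.58.1 in R 4.3.3 (lmFit, then eBayes with its trend option) after log2(normalized count + 1) transformation, with Benjamini-Hochberg adjustment over 22094 genes, which understates fold changes of low genes. The recovered reads were also compared by edgeR 4.0.16 (quasi-likelihood) and DESeq2 1.42.0. All were also run on simulated counts with the same spread setting for every gene, and no result here rests on that. FPKM used the recovered reads, deposited gene lengths and reads on genes. As alternatives, the pseudocount was set to 0.1 or 0.01 and the minimum mean to 0.1, 5 or none, beside 3 scalings, no trend, a replicate block and each library left out. The interval for Itgb7 is exact binomial. Positions were compared with GENCODE M21, where all 31 members had the same start and end, and 11 overlapped a gene on the same strand and 13 an antisense gene.

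Members and gene lists were chosen with earlier results of these data known. The text names every member but 1, which is not reported here by name, genes of the related lists at an unadjusted p under 0.05, and up to 3 of the most abundant of each list. Of the 11 members under that threshold or called by DESeq2, those named carry their counts, the limma log2 fold change with its standard error, and the adjusted p-values of limma and DESeq2.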

Additional observations from a re-analysis of the deposited data

How the results depend on the processing

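All 11 members under an unadjusted p of 0.05 kept their direction in all 16 alternatives. Without the variance trend 3 members were higher at that threshold (8 with it), and DESeq2 called 5 after adjustment where limma and edgeR called 0. With 1 library left out, where the lone library of a label is assumed to vary like the others, members higher at an unadjusted p numbered 1 to 10, lower 1 to 4, and lower without overlap 7 to 12. The replicate block gave 8 higher and 2 lower, with 9 of the 11 kept. Over all 22094 genes, libraries sharing a number did not deviate together, with a correlation of -0.08. Among the 30 tested members, replicate 2 was higher in 21 for WT and in 20 for labelled KO. In 6 members it was over 2-fold higher under both labels, against 746 of all genes. The labels do not say whether libraries sharing a number are pairs, and this was not tested further. Quantile normalization moved the median of all genes from -0.07 to 0.08 and that of members to 0.22, and gave log2 fold changes of 0.13 for Itga2, 0.30 for Lamb3, 0.42 for Lamc3 and 0.028 for Lama1, each below 0 with the authors' scaling. Itgb5 was at 0.10 in edgeR and 0.13 in DESeq2, and Itga4 at 0.015 in DESeq2. Leaving out libraries turned 11 of the other members, with ranges of -0.30 to 2.31 for Itga5, -0.62 to 0.087 for Itga2, -2.91 to 1.03 for Lama4, -0.69 to 0.66 for Itgb5, -1.97 to 0.39 for Itgb8, -1.34 to 0.99 for Lamb3, -0.56 to 0.40 for Lamc3, -2.37 to 0.87 for Itga4, -1.22 to 0.032 for Itga11, -2.35 to 1.31 for Lama1 and -0.95 to 0.042 for Lamb2. The cause of these turns was not tested. Depth limits Itgb6, Itgb7, Lamb3, Lamc3 and Itga11, which rest on few reads. It also limits members that were near the floor in 1 library. In labelled KO replicate 1, Itga4 had 3 reads and Lama1 had 5. Itgb3 had 4 reads in WT replicate 1, and Lama3 had 4 in labelled KO replicate 2.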

Other observations

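Proliferation genes and markers of other cells differed beside the adhesion genes. All 5 proliferation genes were higher in labelled KO at an unadjusted p of 0.05 and without overlap, beside 4.54% and 22.5% of all genes. DESeq2 called 3 of them higher (Mki67, Top2a and Cdk1) but not Ccnb1 or Aurkb, beside 1.64% of all genes. Mki67 read 10.7 and 80.0 in WT against 203 and 1091 normalized counts, at a log2 fold change of 3.94 (SE 1.20). The 10 microglia markers that were lower at that threshold were Cx3cr1, P2ry12, Aif1, Csf1r, C1qa, C1qb, C1qc, Trem2, Tyrobp and Fcrls. Of 9 astrocyte markers only Slc1a2, the glutamate transporter GLT-1, passed it, at 11394 and 5793 in WT against 3078 and 597. Its direction, lower, held at that threshold for 9.18% of all genes. Of 5 neuron markers tested, Tubb3 (52.3 and 80.9 against 170 and 307) and the near-absent Dcx (1.07 and 0 against 7.49 and 4.51) were higher, beside 4.54% of all genes. Of 7 oligodendrocyte lineage markers 0 passed.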
